A study of Homo sapiens with 12 samples.

Results

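The genes described here are MYC, CCND1, CCND2, CCND3, CCNE1, CCNE2, CDK4, CDK6, CDKN1B and CDKN2C, which encode a growth-promoting transcription factor and the cyclins, kinases and kinase inhibitors that act in the G1 phase of the cell cycle. The rule that found them in the table used their names only. Each was found on 1 locus, so they are 10 of the 31585 distinct loci in the deposited table. Of the 10, 9 reached an FPKM (fragments scaled by transcript length and by the mapped total) of at least 1 in at least 3 libraries, as did 15055 loci in all. CCND2 stayed under that minimum in every library, so it is described by its levels and is not among the members counted as called.

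RNA was sequenced from A375 cells, an established human melanoma line. The cells had been stably transduced with a retroviral vector, selected with hygromycin and lysed 24 h after plating according to the sample records. The study's methods give a longer culture. There were 4 groups of 3 libraries. Control carried the empty vector, YAP-S127A carried human YAP with S127A, YAP-S127A,S94A carried S127A with S94A, and YAP-2SA carried S127A with S381A. YAP is a coactivator that works through the TEAD DNA-binding proteins. S127A and S381A remove phosphorylation sites of the LATS kinases, which otherwise keep YAP out of the nucleus or mark it for degradation, and S94A prevents TEAD binding. The comparisons therefore ask whether the G1 genes differ in cells with a LATS-insensitive YAP. By the titles, S94A was carried only together with S127A. The part of TEAD binding can thus be read only from YAP-S127A against YAP-S127A,S94A. No group carried S94A with both S127A and S381A, so the part of TEAD binding in differences of YAP-2SA was not tested. The titles and the study's vector list give YAP-2SA as S127A with S381A, whereas another field of the same records and the series' design text add S94A, and the titles were followed. The design text describes 3 replicates plated from each transduced line, so the p-values measure the spread between platings. Whether a population was a pool or a clone was not given in the sources used here.

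YAP1, which the vectors encode, was read first as a check on the labels. It was at 34.1, 33.0 and 172 FPKM in Control, at 151, 149 and 162 FPKM in YAP-S127A,S94A, at 159, 159 and 187 FPKM in YAP-S127A and at 130, 149 and 136 FPKM in YAP-2SA. In YAP1 the library labelled Control replicate 3 was thus at the level of the mutant libraries. Each call of a member that rests on Control is given below also without it. In COL1A1 this library was at 0.428 FPKM, beside 0.301 and 0.236 FPKM in the other Control libraries. COL1A1 ran from 0.162 to 0.261 FPKM in YAP-S127A,S94A, from 6.11 to 8.42 FPKM in YAP-S127A and from 27.9 to 36.3 FPKM in YAP-2SA. Why YAP1 was high in Control replicate 3 was not tested. For the other genes of the network, 31 of the 33 calls in YAP-2SA against Control held without it. Those lost and gained are named below, with the share called in each list. Over all loci tested, 42.3% were called in that comparison with all libraries and 37.1% without Control replicate 3. With all libraries, the difference in YAP1 against Control was 1.23 on the log2(FPKM + 1) scale in YAP-2SA (adjusted p = 0.0662), and without Control replicate 3 it was 2.01 (adjusted p = 1.3e-07). Of 8 melanocyte lineage genes, 3 reached 1 FPKM in 3 libraries, namely MITF, SOX10 and S100B, while the pigment genes PMEL, MLANA, TYR, TYRP1 and DCT were under 1 FPKM in all 12 libraries. The summed level of the 8 genes ran from 281 to 345 FPKM in Control, from 301 to 336 FPKM in YAP-S127A,S94A, from 231 to 300 FPKM in YAP-S127A and from 39.6 to 49.8 FPKM in YAP-2SA. In YAP-2SA against Control the mean of SOX10, a neural crest transcription factor, was 6.16 against 263 FPKM and that of MITF, the melanocyte master regulator, was 35.0 against 8.59 FPKM. The summed level of 12 markers of other cell types, of which 5 reached 1 FPKM and ALB was at 0 in every library, ran from 84.0 to 94 FPKM in Control, from 84.6 to 91.7 FPKM in YAP-S127A,S94A, from 90.9 to 105 FPKM in YAP-S127A and from 144 to 158 FPKM in YAP-2SA. Most of this sum was CD68, at a mean of 80.2 FPKM in Control and 111 FPKM in YAP-2SA. From Control to YAP-2SA, the mean of COL1A1 went from 0.322 to 33.4 FPKM and that of KRT14 from 6.87 to 0.434 FPKM. All 5 were called in YAP-2SA against Control, beside 42.3% of all loci, with 4 higher and 1, KRT14, lower. The part of these marker shifts in the differences described below was not tested.

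In G1, mitogen signalling raises the D-type cyclins, which bind CDK4 and CDK6. These kinases phosphorylate the RB protein, which releases E2F transcription factors, and E2F then raises the E-type cyclins that activate CDK2 and start DNA replication. CDKN1B (p27) holds cyclin E and CDK2 in check, CDKN2C (p18) binds CDK4 and CDK6 directly, and MYC, with its partner MAX, binds the E-box and raises genes of growth and ribosome production. Melanomas often carry lesions in this module, and drugs that inhibit CDK4 and CDK6 act on it.

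Since the mutants differ in TEAD binding, the windows around the start sites of the members (250 bases before to 50 after the start, RefSeq, GRCh38.p14) were searched for the TEAD hexamer GGAATG, the E-box CACGTG and the E2F octamers TTTGGCGC or TTTCGCGC on either strand. Windows were present for 6 members, with 1 each for CCNE1, CDK4 and CDKN1B, 2 for CDK6 and 3 each for CCND3 and CDKN2C. MYC, CCND1, CCND2 and CCNE2 had no entry. GGAATG was found in 14.0% of all 35116 windows and in 3 of the 11 windows of members, at CCND3 and CDKN2C. The 3 stretches are printed below. Whether matches go with the differences in level was not tested, since MYC, CCND1, CCND2 and CCNE2 had no window. The hexamer or its complement is in capitals, and the sequences read 5′ to 3′ on the strand of the gene. They lie at chr6:41941835-41941858 (minus strand), chr1:50968569-50968592 (plus strand) and chr1:50970051-50970074 (plus strand).
CCND3: acgtccgagCATTCCacggttgct
CDKN2C, window 1: cgggaggcgGGAATGagggcgcgg
CDKN2C, window 2: cattaaccaGGAATGtatgtgtgt
CACGTG was found in 7.26% of all windows and in 4 of the 11, at CDK4, CDK6 and CDKN2C. CDK4 held 3 copies, at chr12:57752512-57752535, chr12:57752492-57752515 and chr12:57752397-57752420 (minus strand), and CDK6, the member with the largest fitted difference, held 1, shown last with its stretch at chr7:92836529-92836552 (minus strand).
CDK4, copy 1: tcaagcggtCACGTGtgatagcaa
CDK4, copy 2: gcaacagatCACGTGgctgccatc
CDK4, copy 3: ggtggcggtCACGTGcccagaacg
CDK6: ggccgcggaCACGTGcggagagcc
The E2F octamers were in 1.15% of all windows and in none of the 11. These matches are of letters in a window and were not tested for binding.

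In YAP-2SA against Control, 4 of the 9 tested members had an adjusted p under 0.05, which is 44.4% beside 42.3% of all loci tested, so the members were called about as often as any locus. CCND1 was higher, a direction in which 22.9% of all loci were called, and CDK6, CCNE1 and CDKN1B were lower, as were 19.5% of all loci. None of the 4 had a ratio of group means over 2, a size that 15.5% of all loci passed together with the adjusted p. The libraries of the groups did not overlap for 5 tested members, beside 52.8% of loci, namely these 4 and CDK4. The median difference over the 9 members was -0.05, beside 0.0083 over all loci. Without Control replicate 3, 2 of the 9 members were called, CDK6 and CCNE1, beside 37.1% of all loci. In bulk RNA, fewer cells that express a gene and less of its RNA per cell cannot be told apart, here and in all results that follow.

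In YAP-S127A against Control none of the 9 members was called by limma with Benjamini-Hochberg adjustment, beside 6.31% of all loci, and 0 had an unadjusted p under 0.05. In YAP-S127A,S94A against Control none was called, beside 0.179% of loci, and again 0 had an unadjusted p under 0.05. For MYC the 95% interval of the difference between YAP-S127A and Control ran from -0.30 to 0.35, and for CDK6 from -0.29 to 0.34.

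Among the mutants, CDK6 alone was called in YAP-2SA against YAP-S127A, beside 32.8% of all loci, while 4 members had an unadjusted p under 0.05. None was called in YAP-S127A against YAP-S127A,S94A, beside 10.7% of loci, and 1, CDKN1B, had an unadjusted p under 0.05. In YAP-2SA against YAP-S127A,S94A, 3 members were called, beside 43.5% of loci, namely CCND1 (higher), CCNE1 and CDKN1B (both lower). YAP-2SA and YAP-S127A,S94A differ in both S381A and S94A, whose parts cannot be told apart in this comparison. These 6 comparisons share libraries with one another, so their calls are not independent.

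**Figure D1:**
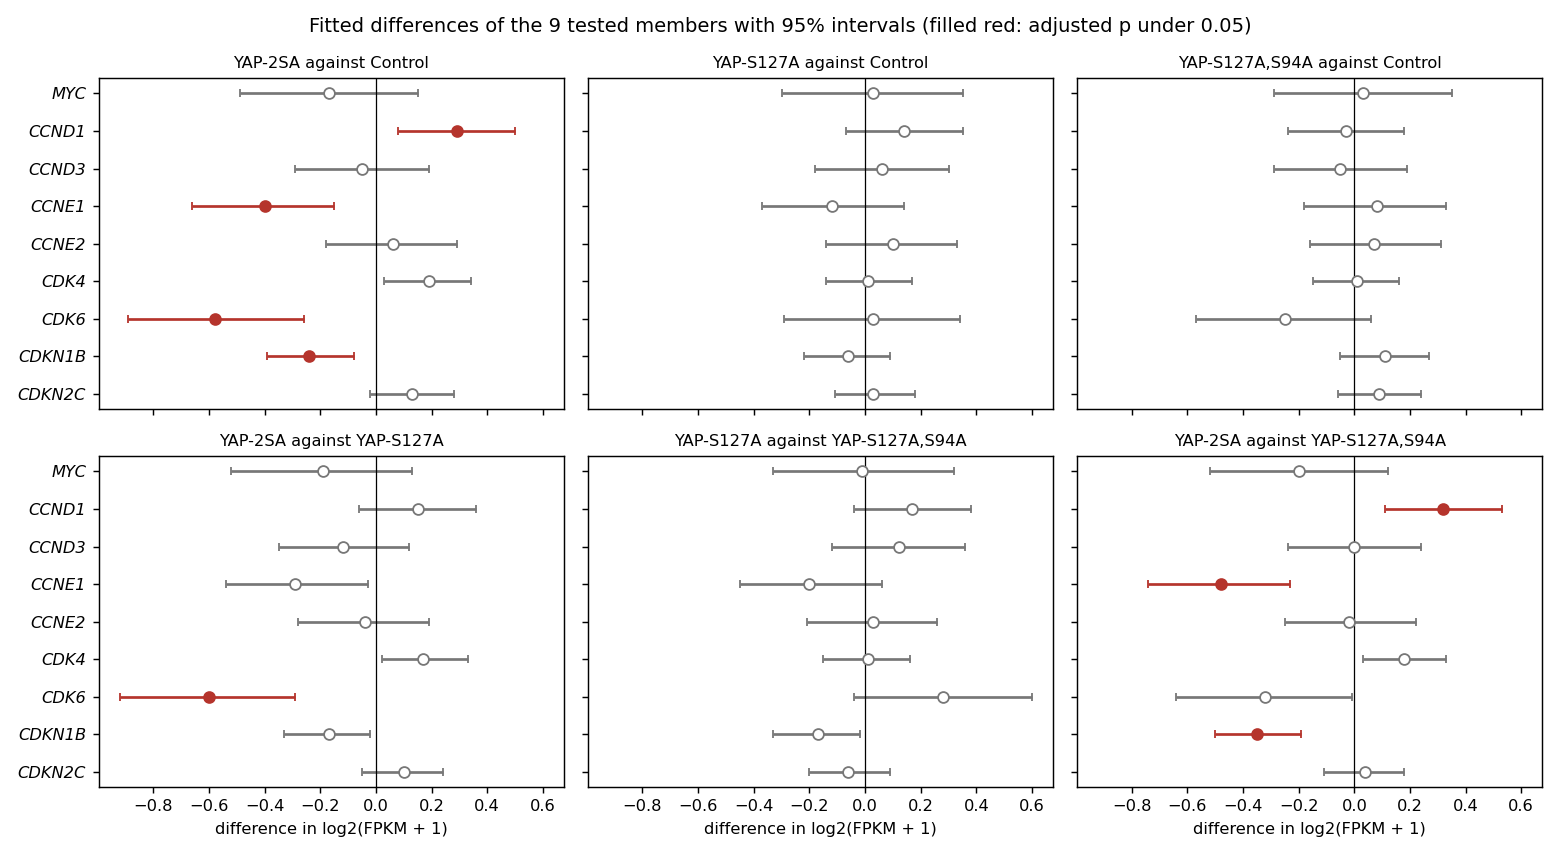
Fitted difference in log2(FPKM + 1) (x axis) of the 9 tested members (y axis) in each of the 6 comparisons, the first-named group minus the second, with 95% intervals from limma; filled red points have an adjusted p under 0.05. In YAP-2SA against Control, CDK6 lay at -0.58 and CCND1 at 0.29, and no point was filled in either comparison of the other mutants with Control.

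MYC (chr8:128747680-128755197, GRCh37, plus strand) was at 11.6, 9.30 and 10.3 FPKM in Control, at 10.8, 10.4 and 10.6 FPKM in YAP-S127A,S94A, at 10.0, 10.1 and 11.6 FPKM in YAP-S127A and at 8.62, 12.1 and 7.20 FPKM in YAP-2SA. All groups overlapped, and YAP-2SA held both the highest and the lowest of the 12 values. Its mean was 9.29 ± 2.50 FPKM (SD, n = 3) beside 10.4 ± 1.16 FPKM in Control. The difference of -0.17 ± 0.15 (log2 scale, SE) did not pass the test (adjusted p = 0.385). This result turned on 1 library. Without YAP-2SA replicate 2, MYC was called lower against Control (-0.35, adjusted p = 0.024), against YAP-S127A (-0.38, adjusted p = 0.0237) and against YAP-S127A,S94A (-0.39, adjusted p = 0.0158).

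Of the D-type cyclins, which activate CDK4 and CDK6, only CCND1 was called in any comparison at the minimum level. CCND1 (cyclin D1, chr11:69455924-69469242, plus strand) was at 121, 134 and 114 FPKM in Control and at 158, 139 and 153 FPKM in YAP-2SA, without overlap. It was at 108, 138 and 116 FPKM in YAP-S127A,S94A and at 129, 142 and 135 FPKM in YAP-S127A, and both of these groups overlapped with Control. The mean in YAP-2SA was 22.2% above that of Control, with a difference of 0.29 ± 0.09 (adjusted p = 0.0301). Without Control replicate 3 it was 0.23 (adjusted p = 0.107). The call was also lost without Control replicate 1 (adjusted p = 0.0739), YAP-2SA replicate 1 (0.0967) or YAP-2SA replicate 3 (0.082), and under quantile normalization the difference was 0.19 (adjusted p = 0.0823). CCND1 was higher in YAP-2SA than in YAP-S127A,S94A by 0.32 ± 0.09 (adjusted p = 0.0181), a call that removal of either YAP-2SA replicate 1 or 3 or YAP-S127A,S94A replicate 1 or 3 ended.

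CCND2 (cyclin D2, chr12:4378937-4414519, plus strand) was listed at 0 in 2 of 3 Control libraries and in 2 of 3 libraries of YAP-S127A,S94A. The remaining library of each group was at 0.00905 and 0.00975 FPKM, respectively. CCND2 was at 0.0966, 0.107 and 0.0432 FPKM in YAP-S127A and at 0.159, 0.199 and 0.134 FPKM in YAP-2SA. The 6 libraries of these groups therefore lay above the 6 of Control and YAP-S127A,S94A, and the YAP-2SA libraries lay above those of YAP-S127A. All values are under 1 FPKM and no fold is given, since the reads behind them are unknown. With no filter on low values, limma gave a difference of 0.21 on the log2(FPKM + 1) scale in YAP-2SA against Control (adjusted p = 2.4e-04), 0.11 in YAP-S127A against Control (adjusted p = 0.0621), 0.11 in YAP-S127A against YAP-S127A,S94A (adjusted p = 0.0454) and 0.10 in YAP-2SA against YAP-S127A (adjusted p = 0.0194).

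CCND3 (cyclin D3, chr6:41902672-42018095, minus strand), one of the members with a GGAATG match, was at 28.9, 31.5 and 26.5 FPKM in Control, at 25.8, 32.4 and 25.6 FPKM in YAP-S127A,S94A, at 29.4, 27.7 and 34.0 FPKM in YAP-S127A and at 29.8, 26.2 and 27.6 FPKM in YAP-2SA. All groups overlapped. The difference in YAP-2SA against Control was -0.05 with a 95% interval from -0.29 to 0.19 (adjusted p = 0.735).

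**Figure D2:**
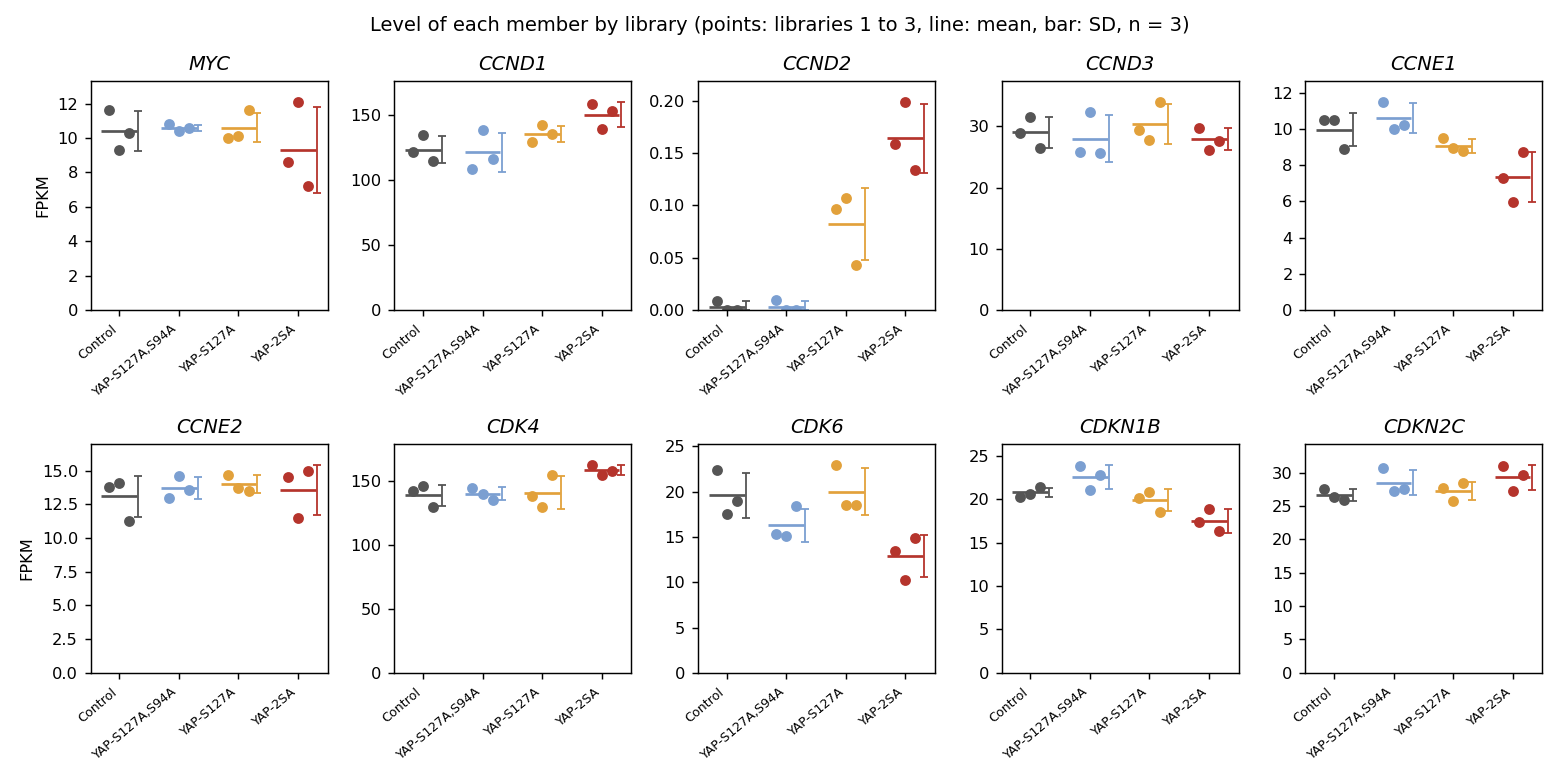
FPKM (y axis, linear from 0) of each of the 10 members in the 4 groups (x axis); points are the 3 libraries, lines the mean and bars the SD, cut at 0. CDK6, CCNE1 and CDKN1B sat lower and CCND1 and CDK4 higher in YAP-2SA than in Control, while MYC spread from 7.20 to 12.1 FPKM within YAP-2SA and CCND2 stayed under 1 FPKM throughout.

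Of the kinases that the D-type cyclins activate, CDK6 was called lower in YAP-2SA than in Control and CDK4 was not called. CDK6 (chr7:92234235-92465887, minus strand) was at 22.4, 17.5 and 19.0 FPKM in Control, at 15.3, 15.1 and 18.4 FPKM in YAP-S127A,S94A, at 23.0, 18.5 and 18.5 FPKM in YAP-S127A and at 13.5, 10.3 and 14.9 FPKM in YAP-2SA. The YAP-2SA libraries were below all others, although the gap between 14.9 FPKM and 15.1 FPKM in YAP-S127A,S94A was small. The mean fell by 34.3% against Control, from 19.6 ± 2.50 to 12.9 ± 2.34 FPKM (SD, n = 3), with a difference of -0.58 ± 0.14 (adjusted p = 0.00772). This call held with any single library left out, with adjusted p from 0.00579 to 0.0322, and without Control replicate 3 the difference was -0.60 (adjusted p = 0.0198). Against YAP-S127A the difference was -0.60 ± 0.14 (adjusted p = 0.0084). Against YAP-S127A,S94A it was -0.32 ± 0.14 (adjusted p = 0.093). The libraries of YAP-S127A,S94A were in turn below those of YAP-S127A without overlap, with 0.28 ± 0.14 for YAP-S127A against YAP-S127A,S94A (adjusted p = 0.261), a difference that did not pass the test. In that comparison the libraries did not overlap for 3 tested members, namely CDK6, CCNE1 and CDKN1B, beside 29.4% of all loci.

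CDK4 (chr12:58141510-58149796, minus strand), the most abundant member, was at 142, 146 and 130 FPKM in Control, at 145, 140 and 135 FPKM in YAP-S127A,S94A, at 138, 130 and 155 FPKM in YAP-S127A and at 163, 155 and 158 FPKM in YAP-2SA. The YAP-2SA libraries lay above those of Control and did not overlap with them. The difference was 0.19 ± 0.07 and missed the threshold (adjusted p = 0.0517). Without Control replicate 3 it was 0.14 (adjusted p = 0.171). It passed when Control replicate 2 was left out (0.22, adjusted p = 0.0476) and when YAP-S127A replicate 2 or 3 was, while under quantile normalization the difference was 0.10 (adjusted p = 0.14).

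Of the E-type cyclins, which activate CDK2, CCNE1 was called lower in YAP-2SA than in Control and CCNE2 was not called. CCNE1 (cyclin E1, chr19:30302898-30315219, plus strand) was at 10.5, 10.5 and 8.91 FPKM in Control, at 11.5, 10.0 and 10.2 FPKM in YAP-S127A,S94A, at 9.51, 8.95 and 8.79 FPKM in YAP-S127A and at 7.32, 5.96 and 8.74 FPKM in YAP-2SA. The YAP-2SA libraries were below all 9 others, although the gap between 8.74 and 8.79 FPKM was small. The mean fell by 26.4% against Control, with a difference of -0.40 ± 0.11 (adjusted p = 0.0159), and without Control replicate 3 it was -0.48 (adjusted p = 0.0141). The call was lost without Control replicate 1 (adjusted p = 0.0526), Control replicate 2 (0.0529) or YAP-2SA replicate 2 (0.052). Against YAP-S127A,S94A the difference was -0.48 ± 0.11 (adjusted p = 0.00612) and against YAP-S127A it was -0.29 ± 0.11 (adjusted p = 0.0833).

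CCNE2 (cyclin E2, chr8:95891998-95908906, minus strand) was at 13.8, 14.1 and 11.3 FPKM in Control, at 13, 14.6 and 13.6 FPKM in YAP-S127A,S94A, at 14.7, 13.7 and 13.5 FPKM in YAP-S127A and at 14.5, 11.5 and 15 FPKM in YAP-2SA. All groups overlapped. The difference in YAP-2SA against Control was 0.06 with a 95% interval from -0.18 to 0.29 (adjusted p = 0.707).

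Of the inhibitors, CDKN1B (p27, chr12:12838432-12875303, plus strand) was at 20.3, 20.6 and 21.4 FPKM in Control, at 23.8, 21.1 and 22.8 FPKM in YAP-S127A,S94A, at 20.2, 20.9 and 18.5 FPKM in YAP-S127A and at 17.4, 18.9 and 16.3 FPKM in YAP-2SA. YAP-2SA lay below Control and below YAP-S127A,S94A without overlap, and overlapped with YAP-S127A. The mean fell by 15.8% against Control, with a difference of -0.24 ± 0.07 (adjusted p = 0.0192). Without Control replicate 3 it was -0.22 (adjusted p = 0.0619), and the call was also lost without YAP-2SA replicate 1 (0.0511) or replicate 3 (0.0779). Against YAP-S127A,S94A the difference was -0.35 ± 0.07 (adjusted p = 0.00223), with adjusted p from 0.00179 to 0.0114 when single libraries were left out.

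CDKN2C (p18, chr1:51426417-51440306, plus strand), the other member with a GGAATG match, was at 27.6, 26.4 and 25.9 FPKM in Control, at 30.7, 27.3 and 27.5 FPKM in YAP-S127A,S94A, at 27.7, 25.8 and 28.4 FPKM in YAP-S127A and at 31.0, 27.2 and 29.7 FPKM in YAP-2SA. The groups overlapped. The difference in YAP-2SA against Control was 0.13 with a 95% interval from -0.02 to 0.28 (adjusted p = 0.143).

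**Figure D3:**
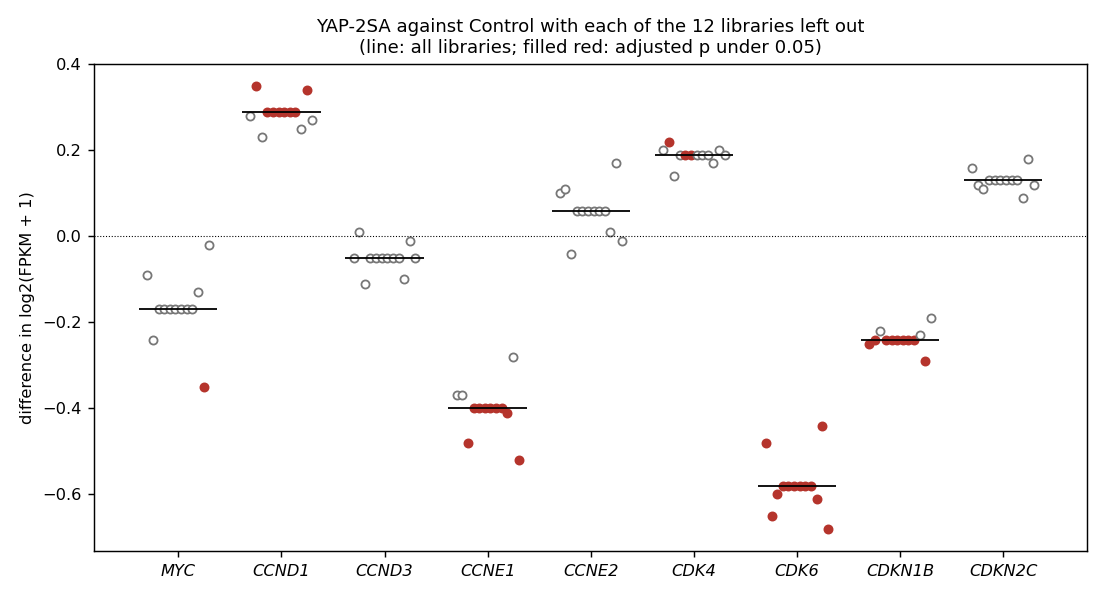
Difference in log2(FPKM + 1) between YAP-2SA and Control (y axis) for the 9 tested members (x axis), with each of the 12 libraries left out in turn (points) and with all of them (lines); filled red points have an adjusted p under 0.05. All points of CDK6 are filled, CCND1, CCNE1 and CDKN1B each hold open ones, and for MYC the single filled point, at -0.35, leaves out YAP-2SA replicate 2.

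FPKM is per length, so levels can be set side by side between genes. In Control the order of the mean levels was CDK4 (139 FPKM), CCND1 (123), CCND3 (29.0), CDKN2C (26.6), CDKN1B (20.8), CDK6 (19.6), CCNE2 (13.1), MYC (10.4), CCNE1 (9.97) and CCND2 (0.00302). The libraries of neighbours overlapped between CDK4 and CCND1, between CCND3 and CDKN2C, between CDKN1B and CDK6, and along CCNE2, MYC and CCNE1. Steps without overlap separated CCND1 from CCND3, CDKN2C from CDKN1B, CDK6 from CCNE2 and CCNE1 from CCND2. In YAP-2SA, CDK6 stood after CCNE2 in this order, at 12.9 beside 13.6 FPKM, and the libraries of the pair overlapped.

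The balance within pairs of related members was read inside each library, where a scaling common to all loci cancels. The ratio of CDK6 to CDK4 FPKM was 0.158, 0.120 and 0.146 in Control and 0.0826, 0.0666 and 0.0946 in YAP-2SA, without overlap. In YAP-S127A it was 0.167, 0.143 and 0.119, and in YAP-S127A,S94A it was 0.105, 0.108 and 0.136. CDK4 was thus the more abundant kinase transcript in every library, and most so in YAP-2SA.

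The ratio of CCND1 to CCND3 was 4.19, 4.27 and 4.29 in Control and 5.31, 5.32 and 5.56 in YAP-2SA. It ran from 4.19 to 4.53 in YAP-S127A,S94A and from 3.96 to 5.12 in YAP-S127A, so the YAP-2SA libraries were above all others. The ratio of CCNE1 to CCNE2 was 0.760, 0.746 and 0.788 in Control, 0.645, 0.652 and 0.650 in YAP-S127A and 0.506, 0.518 and 0.584 in YAP-2SA, so these 3 groups did not overlap with one another. In YAP-S127A,S94A it was 0.887, 0.687 and 0.745, which overlapped with Control only. The ratio of CDKN2C to CDKN1B was 1.36, 1.28 and 1.21 in Control, 1.29, 1.30 and 1.21 in YAP-S127A,S94A, 1.37, 1.24 and 1.54 in YAP-S127A and 1.78, 1.44 and 1.83 in YAP-2SA, so YAP-2SA lay above Control and overlapped with YAP-S127A. The ratios are a description, and differences between them were not tested.

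**Figure D4:**
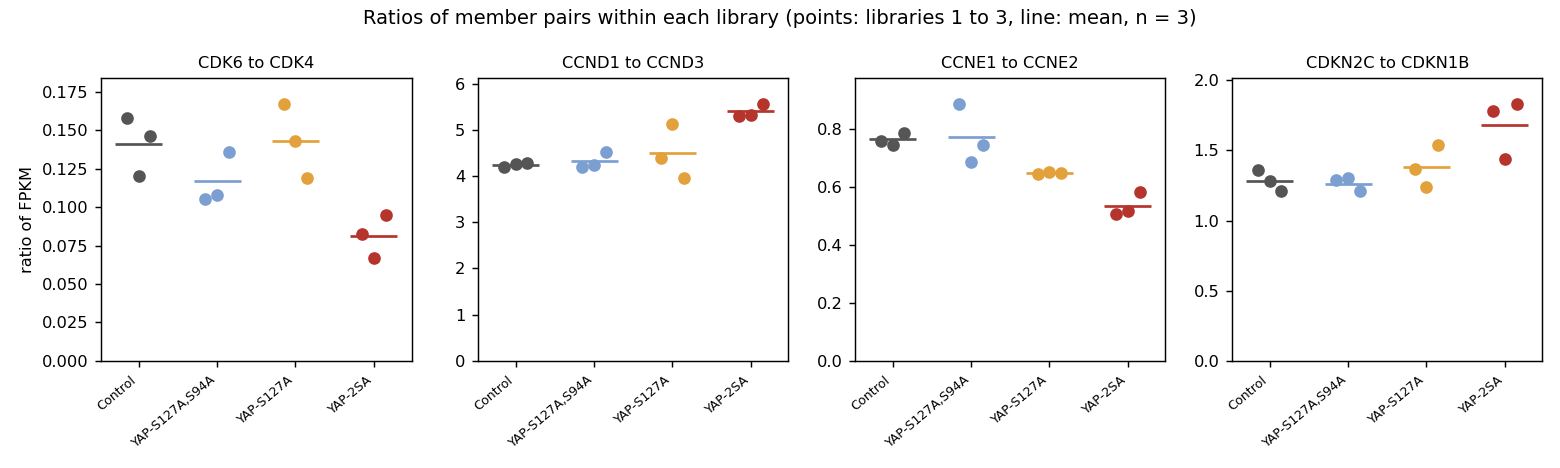
Ratio of FPKM within a library (y axis, linear from 0) for the pairs CDK6 to CDK4, CCND1 to CCND3, CCNE1 to CCNE2 and CDKN2C to CDKN1B, by group (x axis); points are the 3 libraries and lines the mean. In YAP-2SA the mean CDK6 to CDK4 ratio was 0.0812 beside 0.141 in Control, and the mean CCNE1 to CCNE2 ratio was 0.536 beside 0.765.

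Genes around the members were read from 7 lists of the same network. Of the MYC network, the relatives, partners and antagonists of MYC and MAX together with MLX and MLXIP, 9 of 11 genes were tested. In YAP-2SA against Control 5 were lower, or 55.6% beside the 19.5% of all loci called lower, and 0 were higher, and the median difference was -0.27. MXD4 and MXI1, repressors that compete with MYC for MAX, had differences of -1.0 (adjusted p = 9.0e-05) and -0.56 (adjusted p = 0.00283), and MXD1, of the same family, had -0.40 (adjusted p = 0.00422). MXD3, also of this family, went the other way, at 0.22, and missed the threshold (adjusted p = 0.0505). Its mean was 42.7 FPKM in YAP-2SA and 36.6 FPKM in Control, and it was chosen for naming after its value was seen. MXD4 was at 9.76, 11.2 and 14.5 FPKM in Control and at 5.25, 5.6 and 5.14 FPKM in YAP-2SA, without overlap. The other 2 called genes were MAX itself, the partner of MYC (-0.39, adjusted p = 0.0222), and MLX, a MAX-like protein (-0.27, adjusted p = 0.00984), and both belong to the list but were chosen for naming after their values were seen. All 5 calls held without Control replicate 3. None of the 9 was called in YAP-S127A or YAP-S127A,S94A against Control.

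Of 20 textbook MYC target genes of ribosome production and growth, all tested, 4 were higher in YAP-2SA than in Control and 0 lower, or 20% beside the 22.9% of all loci that were called higher. The median difference was 0.14. NPM1 and FBL, nucleolar proteins of ribosome assembly, had differences of 0.39 (adjusted p = 5.5e-04) and 0.34 (adjusted p = 0.00346), and NCL, a nucleolar RNA-binding protein, had 0.28 (adjusted p = 0.0101). NPM1 has processed pseudogenes, and how reads that match several places were divided was not given in the sources used here. The call of PA2G4, a growth-related nucleolar protein, was lost without Control replicate 3 (0.10, adjusted p = 0.166), which leaves 3. With either of the other mutants 0 of the 20 were called against Control.

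Among the other CDK inhibitors, CDKN1C and CDKN1A changed in opposite directions. CDKN1C (p57), of the same family as CDKN1B, was at 22.3, 22.6 and 20.6 FPKM in Control, at 21.0, 20.3 and 19.6 FPKM in YAP-S127A,S94A, at 17.1, 13.2 and 14.8 FPKM in YAP-S127A and at 1.51, 1.59 and 1.20 FPKM in YAP-2SA. YAP-S127A lay below Control and YAP-2SA below YAP-S127A, each without overlap. The difference was -3.23 ± 0.09 in YAP-2SA against Control (adjusted p = 1.3e-09), -0.52 ± 0.09 in YAP-S127A against Control (adjusted p = 0.00791) and -0.10 ± 0.09 in YAP-S127A,S94A against Control (adjusted p = 1). In YAP-S127A against YAP-S127A,S94A it was -0.42 ± 0.09 (adjusted p = 0.0177). CDKN1A (p21), a p53-induced inhibitor of CDK2, rose from a mean of 49.6 to 76.9 FPKM in YAP-2SA, with a difference of 0.62 (adjusted p = 0.00198). The difference of CDKN1C in YAP-S127A without Control replicate 3 was -0.56 (adjusted p = 0.017). The 2 called of 5 tested genes are 40%, beside the 42.3% of all loci. The count was 4 without Control replicate 3, with CDKN2A (0.43, adjusted p = 0.0173) and CDKN3 (0.85, adjusted p = 0.0401) added.

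**Figure D5:**
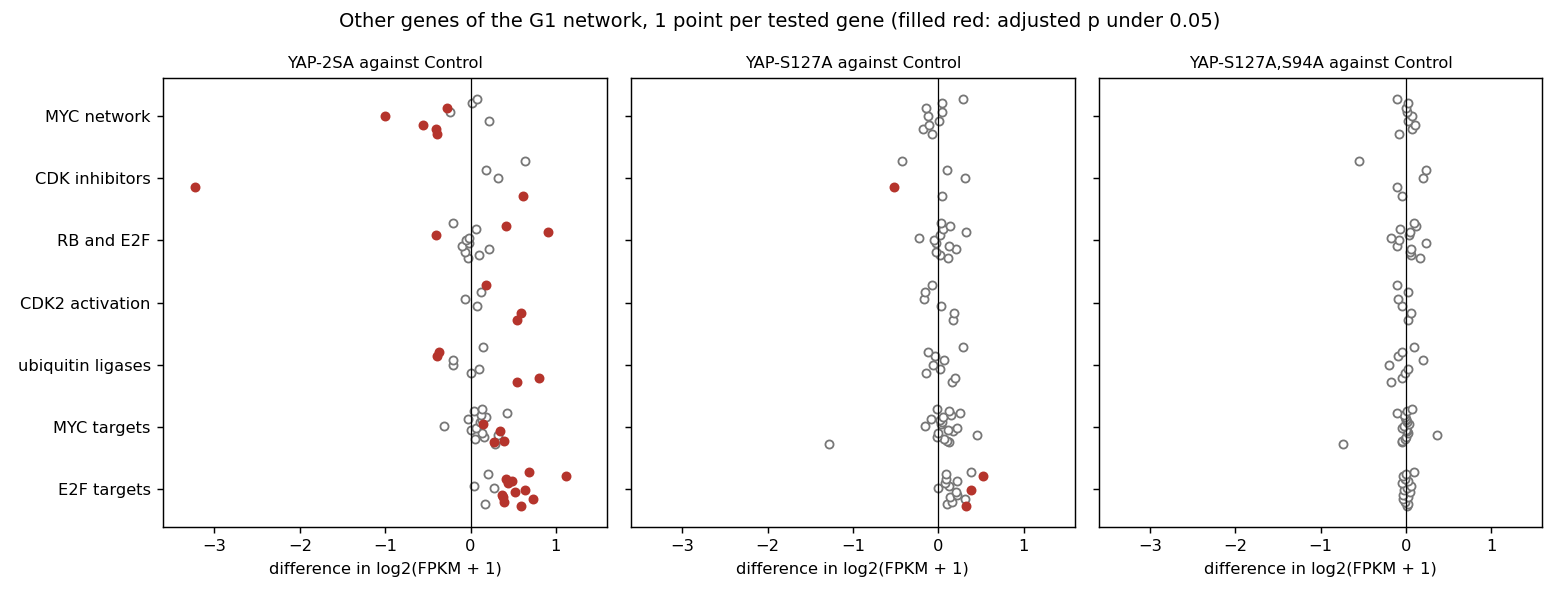
Difference in log2(FPKM + 1) from Control (x axis) of every tested gene of the 7 network lists (y axis) in each mutant; filled red points have an adjusted p under 0.05. The point at -3.23 is CDKN1C in YAP-2SA, the 12 filled points of the E2F targets there are all above 0, and YAP-S127A,S94A has no filled point.

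Downstream of the members, 12 of 16 E2F target genes of S phase entry were higher in YAP-2SA than in Control and 0 lower, or 75.0% beside the 22.9% of all loci called higher, and the median difference was 0.43. TK1, which makes thymidine monophosphate, was at 73.3, 63.6 and 61.7 FPKM in Control and at 156, 138 and 141 FPKM in YAP-2SA, with a difference of 1.12 ± 0.11 (adjusted p = 1.7e-05). MCM5, a subunit of the replicative helicase, and GINS2, its cofactor, had differences of 0.73 (adjusted p = 8.2e-05) and 0.69 (adjusted p = 6.0e-04). In YAP-S127A against Control 3 of the 16 were higher, beside 4.56% of loci, namely TK1, CDT1 and MCM2, and in YAP-S127A,S94A against Control 0. Without Control replicate 3 the 12 calls in YAP-2SA against Control held. The 3 in YAP-S127A against Control were lost (adjusted p = 0.0796 for TK1, 0.0583 for CDT1 and 0.139 for MCM2). In YAP-S127A against YAP-S127A,S94A, 4 of the 16 were higher and 0 lower, or 25.0% beside the 6.36% of all loci called higher there. CCNE1, also a textbook E2F target, was in the other direction, as given above.

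Of the RB and E2F family, 13 genes were tested, and 2 were higher and 1 lower in YAP-2SA than in Control, or 23.1% called beside 42.3% of all loci. E2F7, a repressor of the family, rose by 0.91 (adjusted p = 1.4e-05), from a mean of 7.05 to 14.1 FPKM. TFDP1, the dimer partner of E2F proteins, rose by 0.42 (adjusted p = 9.8e-04), and E2F6, another repressor, fell by 0.40 (adjusted p = 8.5e-04). RB1, the substrate of the cyclin D kinases, had a difference of -0.03 (adjusted p = 0.843) and was chosen for naming after its value was seen. Of 6 genes of CDK2 activation, 3 were higher, or 50.0% beside the 22.9% of all loci called higher, and 0 lower, with CCNA2, the S phase cyclin, at 0.59 (adjusted p = 2.0e-04), CDK2 at 0.54 (adjusted p = 6.4e-05) and MNAT1, a subunit of the CDK-activating kinase, at 0.18 (adjusted p = 0.0268). The call of MNAT1 was lost without Control replicate 3 (adjusted p = 0.057), which leaves 2.

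Of the ubiquitin ligase list, 9 genes of the turnover of G1 regulators, 2 were higher and 2 lower in YAP-2SA than in Control. These are 44.4% called beside 42.3% of all loci, and all 4 calls held without Control replicate 3. SKP2 and CKS1B, which together bring p27 to its ligase, had differences of 0.55 (adjusted p = 3.2e-04) and 0.80 (adjusted p = 5.1e-06). CKS1B was at 171, 175 and 154 FPKM in Control and at 280, 299 and 292 FPKM in YAP-2SA, without overlap. AMBRA1, the substrate receptor for the D-type cyclins, had a difference of -0.39 (adjusted p = 0.00115), and RNF123, of a p27 ligase, was the other lower gene, at -0.37 (adjusted p = 0.00408), and was chosen for naming after its value was seen.

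The loci whose log2(FPKM + 1) ran most like that of MYC over the 12 libraries were EML2 (Pearson r = 0.879), WISP3 (0.857) and EPHX3 (0.851). Those most like CDK6 were LPP-AS2 (0.911), TAC1 (0.910) and NFATC3 (0.897). The points are libraries of 4 groups that share normalization and group differences, so these coefficients are a description with no p.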

How the data were processed

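The authors aligned reads to hg19 (UCSC known genes) and assembled transcripts with Cufflinks 2.0.2, Bowtie2 2.0.0 and TopHat2 2.0.4 (versions per the submitters' processing notes), and deposited 1 table of log2(FPKM + 1) values for 12 libraries. The 31588 entries included 3 duplicates, which were dropped. These values carry no counts. Reads could not be recovered from their steps, since at most 6.72% of low loci shared 1 ratio between libraries, so depth is unknown and limits the precision by an unknown amount. Between 20161 and 20656 loci per library were above 0, and replicates correlated at 0.960 to 0.975.

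The 4 groups were fitted together in limma 3.58.1 (R 4.3.3), with a variance trend on level, over the 15055 loci that reached 1 FPKM in 3 or more libraries. Two-sided p-values were Benjamini-Hochberg adjusted over these loci, and an adjusted p under 0.05 is a call. Differences are in log2(FPKM + 1) units, where low genes appear less changed than they are, and ± after them is the SE. Ratios and percent changes use mean FPKM. The fit was tested on simulated data.

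The members and gene lists were chosen with earlier results of these data known. All members, YAP1, up to 3 called genes per list with the largest difference in YAP-2SA against Control and the 3 loci most correlated with MYC and CDK6 were named. PA2G4, CDKN2A, CDKN3, CDT1, MCM2 and CD68 were chosen after their values were seen. Alternatives were the pseudocount, the filter, scaling, the threshold, the libraries fitted, a replicate block and each library left out. Gene positions are from GENCODE for GRCh37, and plots were made in Python 3.11.15 (matplotlib 3.10.9).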

Additional observations from a re-analysis of the deposited data

How the results depend on the processing

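Of 1134 alternative values of the tested members, 1100 kept their side of the threshold and, where called, their direction, 15 gained a call, 17 lost one, 2 moved by more than the spread, and none reversed a called difference. In YAP-2SA against Control the count of called members was 4, between 2 and 5 with single libraries left out, 1 at an adjusted p under 0.01 and 0 with a ratio over 2. Against YAP-S127A it was 1, between 1 and 3 with libraries left out, 2 with no filter on low values, which brings CCND2 into the test, and 0 with a ratio over 2. Against YAP-S127A,S94A it was 3, between 2 and 4, and 0 with a ratio over 2. In YAP-S127A against YAP-S127A,S94A it was 0, and 1 (CCND2) with no filter. Besides the values given with each gene, CCND1 in YAP-2SA against Control had an adjusted p of 0.0673 with no filter, and CCNE1 had 0.0597 when the other 6 libraries were kept out of the fit. The cause of these shifts was not tested.

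With a ratio over 2 required, the called genes in YAP-2SA against Control were 1 for the MYC network, the CDK inhibitors, the RB and E2F family and the E2F targets, and 0 for CDK2 activation, the ubiquitin ligases and the MYC targets. At an adjusted p under 0.01, 2 MYC targets were called. With single libraries left out, the counts ran from 4 to 6 for the MYC network, 2 to 4 for the CDK inhibitors, 2 to 3 for CDK2 activation, 3 to 5 for the MYC targets and 12 to 14 for the E2F targets, and stayed at 3 for the RB and E2F family and at 4 for the ubiquitin ligases. For YAP1 they gave differences from 0.84 to 2.01 in YAP-2SA, 1.12 to 2.29 in YAP-S127A and 0.99 to 2.16 in YAP-S127A,S94A against Control.

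Deviations of same-numbered libraries correlated at -0.149 to 0.163 over 18 pairs, and those of differently numbered libraries at -0.119 to 0.188 over 36 pairs. Of the 12 libraries, 5 correlated best with their own number. These ranges do not settle whether the replicate numbers pair the samples. With the replicate number as a block, 4 members were called in YAP-2SA against Control, beside 45.4% of all loci (42.3% without the block). Against YAP-S127A,S94A, 4 members were called, beside 46.3% of all loci, with CDK6 added (-0.32, adjusted p = 0.0474). In YAP-2SA against Control, 4 CDK inhibitors were called with the block.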
